A study of Homo sapiens with 24 samples.

Results

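The genes described here are the 7 cyclin-dependent kinase (CDK) inhibitor genes CDKN1A, CDKN1B, CDKN1C, CDKN2A, CDKN2B, CDKN2C and CDKN2D, taken by gene name from 23595 genes in the deposited expression tables. All 7 were present in all 4 tables. Polyadenylated RNA was sequenced from 2 human leukaemia cell lines labelled as acute myeloid leukaemia, IMS-M2 and U937, each kept in medium that contained folic acid (+FA) or lacked it (-FA). Cells of each culture condition received either DMSO, the solvent control, or OTX. The labels do not spell out OTX and give no dose, time or duration of folic acid withdrawal; from what is known of the study, OTX is birabresib, an inhibitor that displaces BET bromodomain proteins from acetylated chromatin. Each of the 8 groups (IMS-M2 +FA DMSO, IMS-M2 +FA OTX, IMS-M2 -FA DMSO, IMS-M2 -FA OTX, and the same 4 in U937) held 3 libraries, 24 in all. Nothing in the labels says whether the 3 libraries came from separate cultures, so the p-values measure only the spread between these libraries. The 4 groups of a line share its genetic background, and differences between the lines rest on a single cell line each.

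CDK inhibitors are small proteins that hold back the kinases driving a cell from G1 into S phase. The INK4 proteins, encoded by CDKN2A, CDKN2B, CDKN2C and CDKN2D, bind CDK4 and CDK6 and keep them from their D-type cyclins. The CIP/KIP proteins, encoded by CDKN1A (p21), CDKN1B (p27) and CDKN1C (p57), bind cyclin-CDK complexes more broadly and inhibit CDK2. With these kinases inhibited, the retinoblastoma protein RB1 stays bound to E2F factors and genes of DNA replication are held back; in myeloid cells, CDK inhibitors are known for their part in leaving the cycle during differentiation.

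Expression is given in FPKM, a fragment count scaled by transcript length and by library size, so levels of different genes can be set side by side. Summed FPKM per library ranged from 522659 to 644841, and 10418 to 10894 genes reached 1 FPKM. Read counts were not part of the tables, so the sequencing depth behind a value is unknown. Within a group, the mean correlation of a library with its partners ran from 0.991 to 0.997. The lowest was the U937 -FA DMSO library in column 2, which also had the highest FPKM sum and the lowest CDKN1A, CDKN1B, CDKN1C, CDKN2A and CDKN2C values of its group. Of 9 markers of blood and myeloid cells, 6 to 8 reached 1 FPKM in every group, among them PTPRC, SPI1, CD33, ITGAM, LYZ and CD68, while CD14 was below 1 FPKM throughout. Their summed level was lower under OTX in all 4 conditions, from 233 to 72.0 and from 223.5 to 90.3 FPKM in IMS-M2 (+FA and -FA) and from 790.1 to 508 and from 1771 to 739.9 FPKM in U937. In U937 most of this sum was LYZ, lysozyme, whose mean went from 548 to 259.8 and from 1445 to 446 FPKM; without it the sums were 242.5 and 248 FPKM (+FA) and 326 and 294 FPKM (-FA). PTPRC, ITGAM and MPO had higher means under OTX in both U937 conditions, for PTPRC from 39.6 to 92.4 and from 49.1 to 90.4 FPKM. MPO started low, at 0.192 (+FA) and 0.281 FPKM (-FA) under DMSO. SPI1, CD33, CSF1R and CD14, like LYZ, had lower OTX means in both U937 conditions. For SPI1 the DMSO and OTX means were 138.9 and 94.5 FPKM (+FA), and 176.1 and 123.3 FPKM (-FA). CD68 was lower under OTX in U937 -FA (40.6 and 25.7 FPKM) but not in U937 +FA (18.9 and 19.5 FPKM). Of 21 markers of other cell types, 6 or 7 reached 1 FPKM in IMS-M2, including ITGA2B, GP9, CD79A, KRT8, KRT18 and PDGFRB, and 1 or 2 in U937, CD79A among them in every group. Their summed level ranged from 94.2 to 200.4 FPKM in IMS-M2 and from 2.90 to 6.01 FPKM in U937, and 5 to 12 of the 21 were listed at 0 in a group. The part of either marker list in the results below was not tested. In bulk RNA, fewer cells of a kind and less RNA per cell cannot be told apart.

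More CDK inhibitor genes rose than fell under OTX, except in IMS-M2 without folic acid, where 2 rose and 2 fell of 6 tested. CDKN1A and CDKN2D rose in all 4 comparisons of OTX with DMSO, CDKN2C rose in 3, and CDKN2B rose in both U937 comparisons, the only ones in which it could be tested. CDKN2A went the other way: it fell in both IMS-M2 comparisons and had lower means under OTX in U937 that did not pass the test. CDKN1B rose in 2 comparisons, one in each line, and CDKN1C rose in U937 and fell in IMS-M2 without folic acid.

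The tests were limma fits to log2(FPKM + 1) over all genes with a group mean of at least 1 FPKM, with Benjamini-Hochberg adjustment, and a gene was called at an adjusted p under 0.05. Changes are given on this scale, which understates the change of genes near or below 1 FPKM. In IMS-M2 +FA, 4 of the 6 inhibitors tested rose and 1 fell, against 29.8% of all genes tested rising and 33.4% falling. In IMS-M2 -FA, 2 rose and 2 fell of 6, against 27.5% and 30.0%. In U937 +FA, 5 of 7 rose and 0 fell, against 29.1% and 27.0%; at an unadjusted p under 0.05, limma had 1 falling, CDKN2A. In U937 -FA, 6 of 7 rose and 0 fell, against 28.0% and 31.7%, and none fell at an unadjusted p under 0.05 either. With the U937 -FA libraries scaled to equal FPKM sums, the median of all genes shifted by 0.129 and the share of rises among called genes went from 46.9% to 59.8%, with 6 inhibitors still called as rising. The median log2 change of the inhibitors tested was 0.64, 0.06, 0.83 and 1.12 in these comparisons, beside medians of -0.03, -0.01, 0.02 and -0.02 over all genes.

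**Figure D1:**
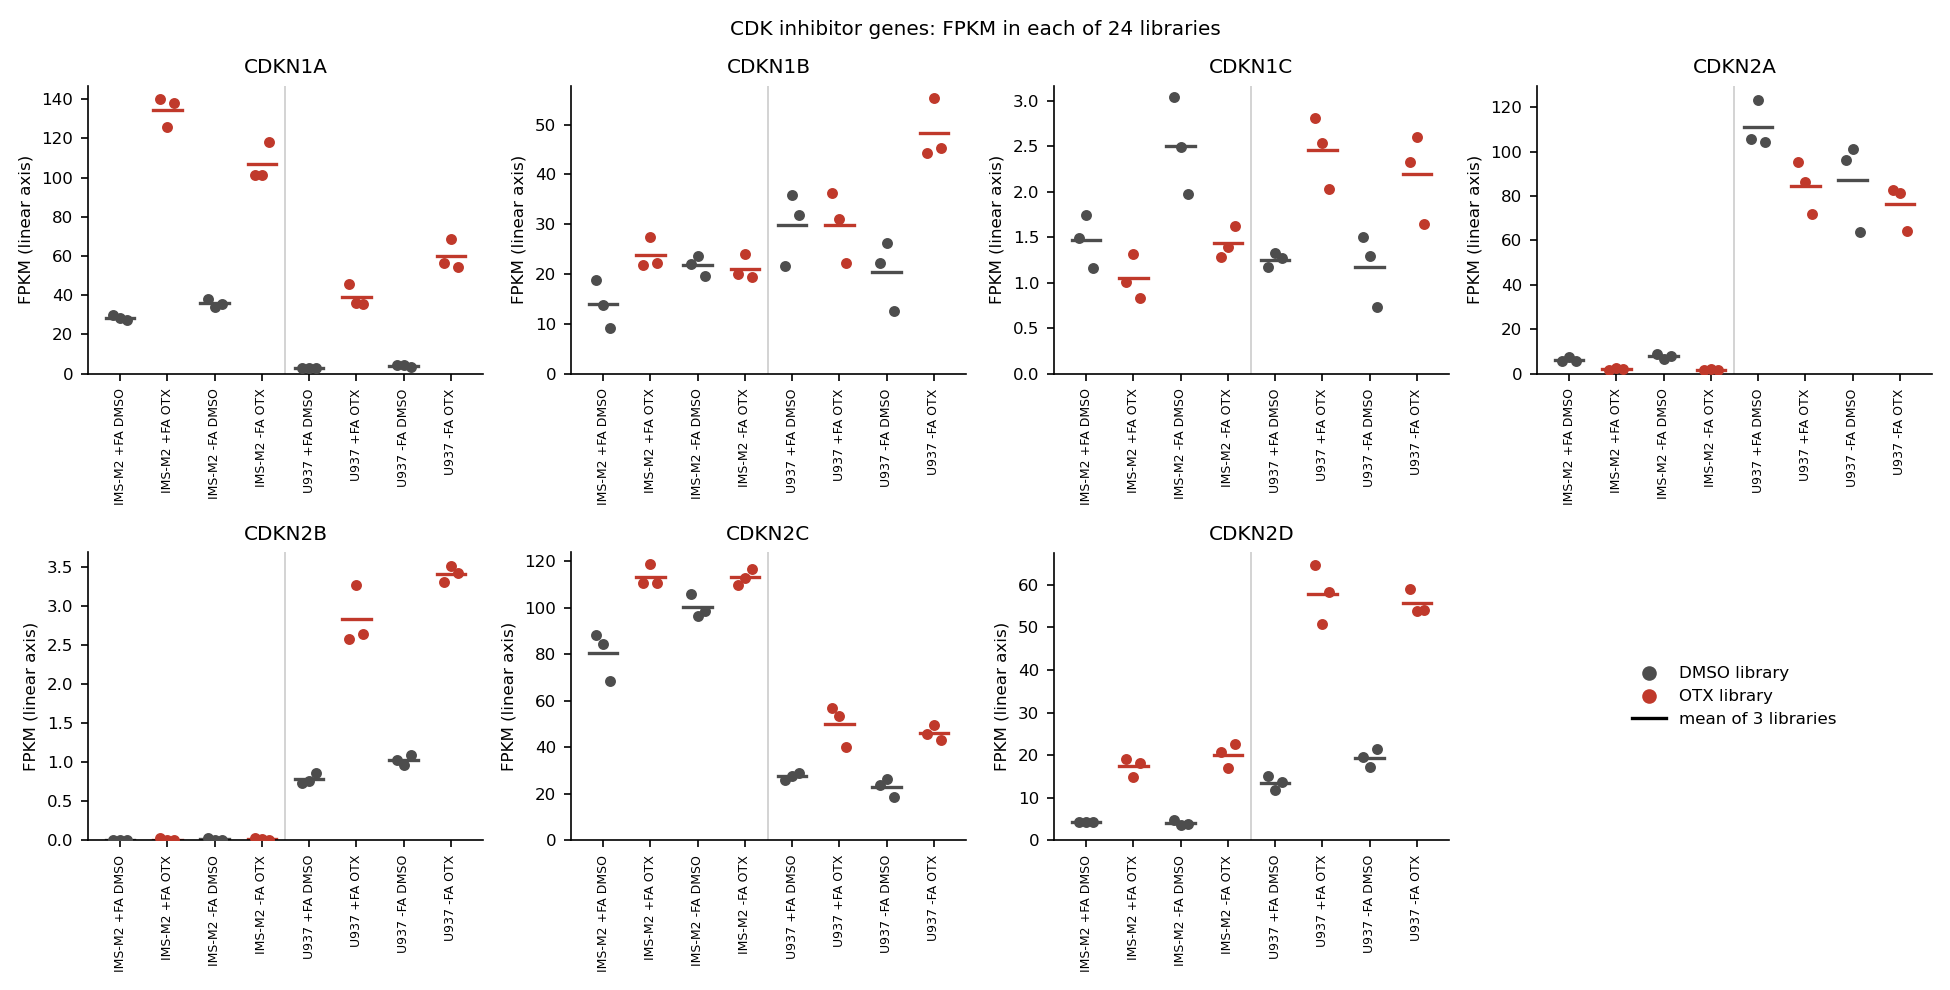
FPKM (linear axis from 0, own range in each panel) of the 7 CDK inhibitor genes in each library, as points, with DMSO libraries in grey, OTX libraries in red and the mean of 3 libraries as a line. CDKN1A and CDKN2D are higher in every OTX library than in every DMSO library of the same line and folic acid condition, while CDKN2A lies between 1.52 and 8.93 FPKM in IMS-M2 and between 63.7 and 123 FPKM in U937.

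CDKN1A, the gene of p21, was the inhibitor with the largest change in 3 of the 4 comparisons. It lies at chr6:36644236-36655116 (hg19, positions as deposited). In IMS-M2 +FA it measured 29.8, 28.2 and 27.6 FPKM under DMSO and 139.8, 126 and 138 FPKM under OTX. The groups were far apart, and the change of 2.20 (SE 0.0811, adjusted p = 2.92e-10) ranked 22 of 11223 genes from the highest. In IMS-M2 -FA the DMSO libraries held 37.9, 34.2 and 35.5 FPKM and the OTX libraries 101, 101 and 118 FPKM, a change of 1.55 (SE 0.0811, adjusted p = 8.42e-09). U937 started from a much lower level and rose by a larger factor.

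With folic acid, U937 held 2.73, 3.14 and 3.07 FPKM of CDKN1A under DMSO and 45.7, 36.2 and 35.7 FPKM under OTX. The log2 change was 3.33 (SE 0.122, adjusted p = 1.06e-08), the fourth highest of 11194 genes. Without folic acid, U937 went from 4.28, 4.27 and 3.36 FPKM to 56.3, 68.7 and 54.4 FPKM, a change of 3.61 (SE 0.122, adjusted p = 5.31e-09) that ranked 2 of 11194. In FPKM these are rises of 4.71 and 2.98 times in IMS-M2 and of 13.2 and 15.1 times in U937 (+FA and -FA). Across the 8 groups the order of means ran from 135 ± 7.61 (SD, n = 3) FPKM in IMS-M2 +FA OTX through 107 ± 9.55, 59.8 ± 7.73 and 39.2 ± 5.63 in the other OTX groups (IMS-M2 -FA, U937 -FA, U937 +FA), then 35.9 ± 1.89 and 28.5 ± 1.12 in IMS-M2 DMSO (-FA, +FA) and 3.97 ± 0.527 and 2.98 ± 0.217 in U937 DMSO (-FA, +FA). The only neighbours in that order whose libraries overlapped were U937 +FA OTX and IMS-M2 -FA DMSO. The 4 tables may have been scaled separately, so levels set across lines or folic acid conditions carry no test; each OTX change is taken within 1 table.

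The 250 bases before the RefSeq start of CDKN1A (GRCh38.p14, chr6:36678464-36678713, plus strand) are shown because this gene rose in all 4 comparisons. Capitals mark the 4 copies of the GC box GGGCGG, searched on both strands; the last 2 copies share bases. These bases were 76.4% G or C, beside a mean of 57.2% over 35116 promoters of the same length.
CDKN1A: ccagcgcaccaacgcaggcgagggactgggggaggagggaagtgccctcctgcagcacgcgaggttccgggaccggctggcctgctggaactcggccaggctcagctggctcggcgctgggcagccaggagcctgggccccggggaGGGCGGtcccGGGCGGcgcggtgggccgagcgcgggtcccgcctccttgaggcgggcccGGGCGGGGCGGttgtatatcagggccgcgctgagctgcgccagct

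CDKN1B, the gene of p27, which binds CDK2 complexes and is itself removed through the SKP2 ubiquitin ligase, did not follow CDKN1A. It lies at chr12:12870301-12875305. IMS-M2 +FA went from 18.8, 13.8 and 9.22 FPKM under DMSO to 21.9, 27.5 and 22.3 FPKM under OTX (0.78, SE 0.188, adjusted p = 0.00295). Without folic acid the IMS-M2 groups overlapped, at 22.1, 23.6 and 19.5 FPKM against 19.9, 23.9 and 19.3 FPKM (-0.05, 95% interval -0.45 to 0.36, adjusted p = 0.850). In U937 the called rise was in the other folic acid condition, though the difference between conditions was not called in either line. U937 +FA held 21.7, 35.8 and 31.9 FPKM under DMSO and 36.3, 31.1 and 22.2 FPKM under OTX (0.00, 95% interval -0.57 to 0.58, adjusted p = 0.990). U937 -FA went from 22.3, 26.3 and 12.7 FPKM to 44.4, 55.4 and 45.3 FPKM, with no overlap (1.26, SE 0.262, adjusted p = 0.00156). CDKN1B also had the largest SE among the inhibitors tested in all 4 comparisons (0.188 in IMS-M2 and 0.262 in U937). In FPKM, 7 of its 8 group means, from 13.9 ± 4.77 FPKM in IMS-M2 +FA DMSO to 29.9 ± 7.13 FPKM in U937 +FA OTX, overlapped their neighbours in the order of means, and only U937 -FA OTX, at 48.4 ± 6.12 FPKM, stood clear.

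CDKN1C, the gene of p57, stayed low in all groups, with means from 1.05 to 2.50 FPKM whose neighbours in order all overlapped. It lies at chr11:2904447-2906995. In U937 +FA it rose from 1.17, 1.33 and 1.27 FPKM to 2.81, 2.54 and 2.03 FPKM (0.61, SE 0.148, adjusted p = 0.00431). In U937 -FA it rose from 1.5, 1.29 and 0.727 FPKM to 2.32, 2.60 and 1.65 FPKM (0.56, SE 0.148, adjusted p = 0.00684). Every OTX library was above every DMSO library in both. IMS-M2 -FA showed the opposite direction, from 3.04, 2.49 and 1.98 FPKM to 1.28, 1.39 and 1.63 FPKM (-0.52, SE 0.128, adjusted p = 0.00394). In IMS-M2 +FA the libraries overlapped, at 1.49, 1.74 and 1.16 FPKM against 1.0, 1.32 and 0.830 FPKM (-0.27, adjusted p = 0.0867), and the gene was called as falling without DMSO replicate 3 or OTX replicate 2 (-0.36 in each, adjusted p = 0.0376 and 0.0406). With a pseudocount of 0.1 FPKM in place of 1 the U937 changes of CDKN1C were 0.91 and 0.88 (+FA and -FA), still called.

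CDKN2D, the gene of the INK4 protein p19, rose 4.02, 4.99, 4.29 and 2.87 times in FPKM (IMS-M2 +FA and -FA, U937 +FA and -FA). It lies at chr19:10677137-10679655. IMS-M2 +FA went from 4.29, 4.39 and 4.29 FPKM to 19.1, 14.9 and 18.1 FPKM (1.78, SE 0.117, adjusted p = 5.71e-08). IMS-M2 -FA went from 4.65, 3.62 and 3.82 FPKM to 20.8, 16.9 and 22.7 FPKM (2.06, SE 0.117, adjusted p = 1.70e-08), here the largest change among the inhibitors. The DMSO libraries of IMS-M2 were tightly grouped and no OTX library came near them. U937 +FA went from 15, 11.8 and 13.7 FPKM to 64.6, 50.9 and 58.3 FPKM (2.02, SE 0.113, adjusted p = 1.40e-07). U937 -FA went from 19.6, 17.3 and 21.3 FPKM to 59.1, 53.8 and 54.2 FPKM (1.48, SE 0.113, adjusted p = 1.0e-06). In the order of means, both U937 OTX groups came first (57.9 ± 6.85 and 55.7 ± 2.97 FPKM, overlapping), and the IMS-M2 OTX groups (20.1 ± 2.97 and 17.4 ± 2.21 FPKM) overlapped with U937 -FA DMSO at 19.4 ± 2.04 FPKM, with U937 +FA DMSO at 13.5 ± 1.62 FPKM next and the IMS-M2 DMSO groups, 4.32 ± 0.0576 and 4.03 ± 0.544 FPKM, last.

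The 250 bases before the RefSeq start of CDKN2D (GRCh38.p14, chr19:10568980-10569229, minus strand) are shown as the other gene that rose in all 4. Capitals mark GGGCGG, once as written and once on the opposite strand as CCGCCC.
CDKN2D: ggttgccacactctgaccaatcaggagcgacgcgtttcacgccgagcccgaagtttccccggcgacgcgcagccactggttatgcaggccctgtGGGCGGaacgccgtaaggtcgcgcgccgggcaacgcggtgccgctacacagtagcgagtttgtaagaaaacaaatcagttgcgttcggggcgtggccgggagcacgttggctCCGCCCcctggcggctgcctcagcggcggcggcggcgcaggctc

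CDKN2A fell in IMS-M2 and was by far the most abundant inhibitor of U937 under DMSO. The gene encodes the INK4 protein p16 from one first exon and the unrelated protein ARF from another, and the gene-level FPKM sums both; the deposited locus, chr9:21967137-21994490, also carries C9orf53. IMS-M2 +FA went from 5.68, 7.42 and 5.81 FPKM to 1.79, 2.45 and 2.19 FPKM (-1.21, SE 0.121, adjusted p = 2.60e-06), a level 2.94 times lower. IMS-M2 -FA went from 8.93, 6.82 and 8.07 FPKM to 1.52, 2.04 and 1.72 FPKM (-1.69, SE 0.121, adjusted p = 1.50e-07), 4.51 times lower. The IMS-M2 groups were well apart in both. U937 +FA held 106, 123 and 104 FPKM under DMSO and 95.3, 86.2 and 72.1 FPKM under OTX. Although these groups did not overlap, the change of -0.40 (95% interval -0.78 to -0.02) had an adjusted p of 0.0717, which became 0.0257 when only the libraries of that table were fitted. In U937 -FA the groups overlapped, at 96.3, 101 and 63.7 FPKM against 82.7, 81.4 and 64.5 FPKM (-0.17, 95% interval -0.55 to 0.21, adjusted p = 0.418). The 63.7 FPKM belonged to the DMSO library of column 2 named above; without it the change was -0.38 (adjusted p = 0.0354). In the order of means U937 +FA DMSO came first at 111 ± 10.6 FPKM, the other U937 groups followed at 87.0 ± 20.4, 84.5 ± 11.7 and 76.2 ± 10.2 FPKM with overlap, and the highest IMS-M2 group, -FA DMSO, stood far below at 7.94 ± 1.06 FPKM.

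The 2 RefSeq starts of CDKN2A lie far apart, and the deposited values cannot say which of them the reads came from. Their 250 upstream bases (GRCh38.p14, minus strand, chr9:21974858-21975107 before the p16 first exon and chr9:21995325-21995574 before the ARF first exon) are shown because this was the one inhibitor that fell in both IMS-M2 comparisons. Capitals mark GGGCGG, found once before p16 and not before ARF.
CDKN2A_p16: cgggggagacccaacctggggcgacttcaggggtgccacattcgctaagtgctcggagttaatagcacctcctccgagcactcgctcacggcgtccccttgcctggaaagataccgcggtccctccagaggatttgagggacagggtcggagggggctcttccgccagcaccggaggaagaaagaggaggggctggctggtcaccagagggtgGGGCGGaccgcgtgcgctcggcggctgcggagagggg
CDKN2A_ARF: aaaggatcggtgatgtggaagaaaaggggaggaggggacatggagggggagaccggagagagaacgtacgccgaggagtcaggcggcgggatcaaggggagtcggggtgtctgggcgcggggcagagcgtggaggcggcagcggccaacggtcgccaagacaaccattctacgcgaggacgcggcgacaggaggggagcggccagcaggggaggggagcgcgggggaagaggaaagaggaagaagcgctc

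CDKN2B, the gene of p15, lies next to CDKN2A, and its deposited locus, chr9:21994789-22121093, spans the antisense gene CDKN2B-AS1. It was close to undetected in IMS-M2: the 12 libraries ranged from 0 to 0.0279 FPKM, 4 of them listed at 0, and the gene was below the filter there. U937 +FA went from 0.730, 0.757 and 0.867 FPKM to 2.58, 3.28 and 2.65 FPKM (1.10, SE 0.0788, adjusted p = 7.49e-07). U937 -FA went from 1.03, 0.970 and 1.09 FPKM to 3.31, 3.52 and 3.43 FPKM (1.12, SE 0.0788, adjusted p = 5.54e-07). These are rises of 3.61 and 3.32 times in FPKM, with no overlap, and with a pseudocount of 0.1 FPKM the log2 changes were 1.73 and 1.64. CDKN2B passed the filter through its OTX groups and the U937 -FA DMSO mean of 1.03 FPKM. The library kit keeps strand, but whether counting used it is not given in the sources used here, so reads of CDKN2B and CDKN2B-AS1 may not be separated. CDKN2B-AS1 itself was at 1.0 ± 0.353 and 1.0 ± 0.274 FPKM (DMSO, OTX) in U937 +FA and at 0.958 ± 0.372 and 0.610 ± 0.183 FPKM in U937 -FA, and was not called in either (adjusted p = 0.986 and 0.194). MTAP, the gene on the other side of CDKN2A and an enzyme of methionine salvage, fell in both U937 comparisons (-0.53 and -0.57, adjusted p = 0.000240 and 0.000129) and was not called in IMS-M2.

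CDKN2C, the gene of p18, was the most abundant inhibitor of IMS-M2 under DMSO. It lies at chr1:51434366-51440309. IMS-M2 +FA went from 88.2, 84.5 and 68.4 FPKM to 111, 119 and 110.4 FPKM (0.50, SE 0.0926, adjusted p = 0.000489). In IMS-M2 -FA the values were 106, 96.2 and 98.6 FPKM under DMSO and 109.6, 113 and 117 FPKM under OTX, which did not overlap but did not pass the test (0.17, 95% interval -0.03 to 0.37, adjusted p = 0.130). U937 had lower CDKN2C means, a comparison across tables that carries no test. Its OTX change was larger, but the line difference was called only without folic acid. U937 +FA went from 26.0, 27.5 and 28.8 FPKM to 56.8, 53.5 and 40.1 FPKM (0.83, SE 0.142, adjusted p = 0.000430), and U937 -FA from 23.5, 26.4 and 18.5 FPKM to 45.7, 49.6 and 43.2 FPKM (1.0, SE 0.142, adjusted p = 0.000106). All 4 IMS-M2 groups, from 80.4 ± 10.6 FPKM upward, were above all 4 U937 groups, which reached 50.1 ± 8.82 FPKM.

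Over the members with a RefSeq upstream sequence (6 of the 7 genes, 9 starts), GGGCGG was present before 7 starts, from 1 to 5 copies. It was present before 42.6% of all 35116 promoters. The E-box CACGTG, the site that MYC-MAX dimers bind, was found before 2 of the 3 CDKN2C starts and before no other member, against 6.34% of all promoters. The TATA box TATAAA (10.7% of all) and the E2F site written as TTTGGCGC or TTTCGCGC (0.968% of all) were found before none of the 9. Both strands were searched, and a match or its absence describes only the letters in this window.

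**Figure D2:**
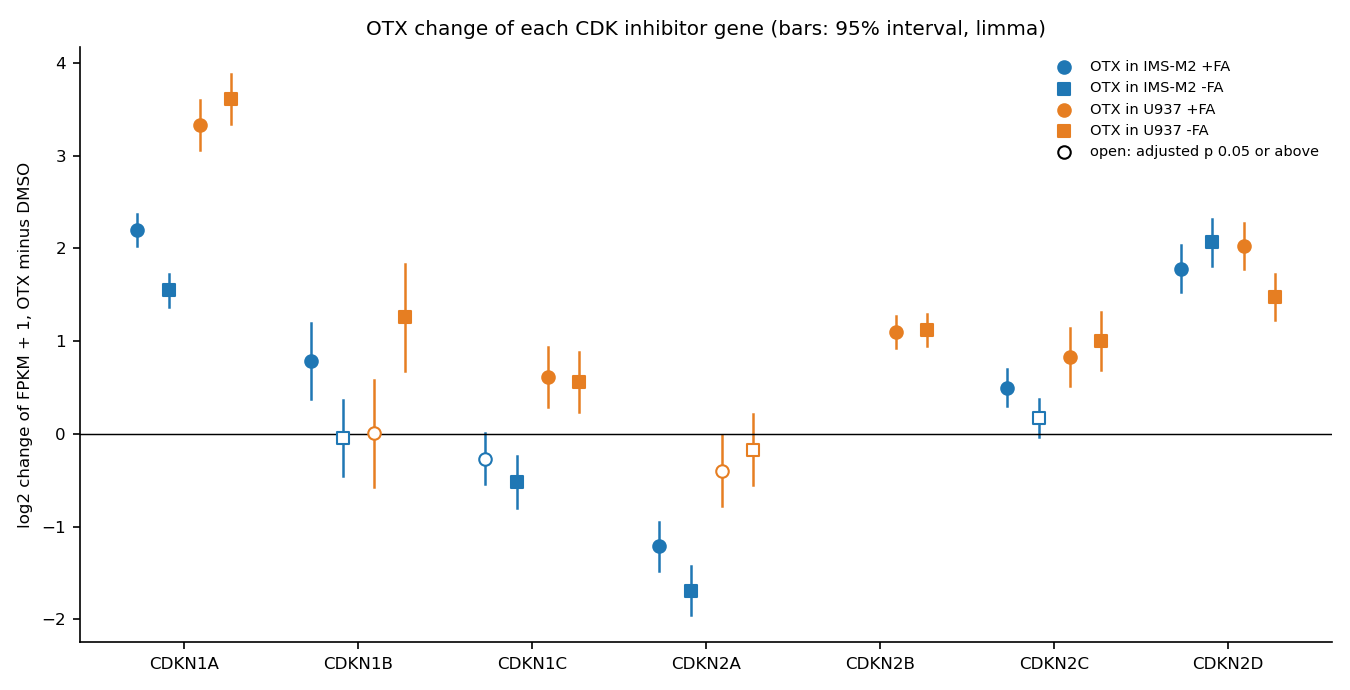
Change under OTX (OTX minus DMSO, log2 of FPKM + 1) of each CDK inhibitor gene in IMS-M2 (blue) and U937 (orange), with folic acid (circles) and without (squares); bars are 95% intervals from limma and open symbols did not pass an adjusted p of 0.05. CDKN1A reaches 3.33 and 3.61 in U937, CDKN2A is the gene furthest below 0 at -1.21 and -1.69 in IMS-M2, and CDKN2B has no symbol in IMS-M2 because it was below the filter.

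The make-up of the family differed between the lines more than its sum did. The summed FPKM of the 7 genes was 135 ± 16.5 and 172 ± 8.90 in IMS-M2 DMSO (+FA, -FA) and 187 ± 15.5 and 156 ± 30.2 in U937 DMSO. Under OTX the sums were 292 ± 1.93, 264 ± 13.7, 267 ± 35.6 and 292 ± 24.2 in the same order. In every condition, each OTX library had a higher sum than each DMSO library. CDKN2C made up 59.5% ± 0.821 and 58.2% ± 0.631 of the sum in IMS-M2 DMSO, and CDKN2A made up 59.5% ± 2.41 and 55.5% ± 2.64 in U937 DMSO (+FA, -FA). Under OTX, CDKN1A became the largest single part in IMS-M2 +FA, at 46.0% ± 2.37, and stood at 40.4% ± 1.52 beside CDKN2C at 42.8% ± 1.0 in IMS-M2 -FA. In U937, CDKN1A went from 1.59% ± 0.0654 to 14.7% ± 0.839 with folic acid and from 2.57% ± 0.184 to 20.5% ± 1.31 without it, and CDKN2A remained the largest part at 31.7% ± 0.924 and 26.1% ± 1.99.

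**Figure D3:**
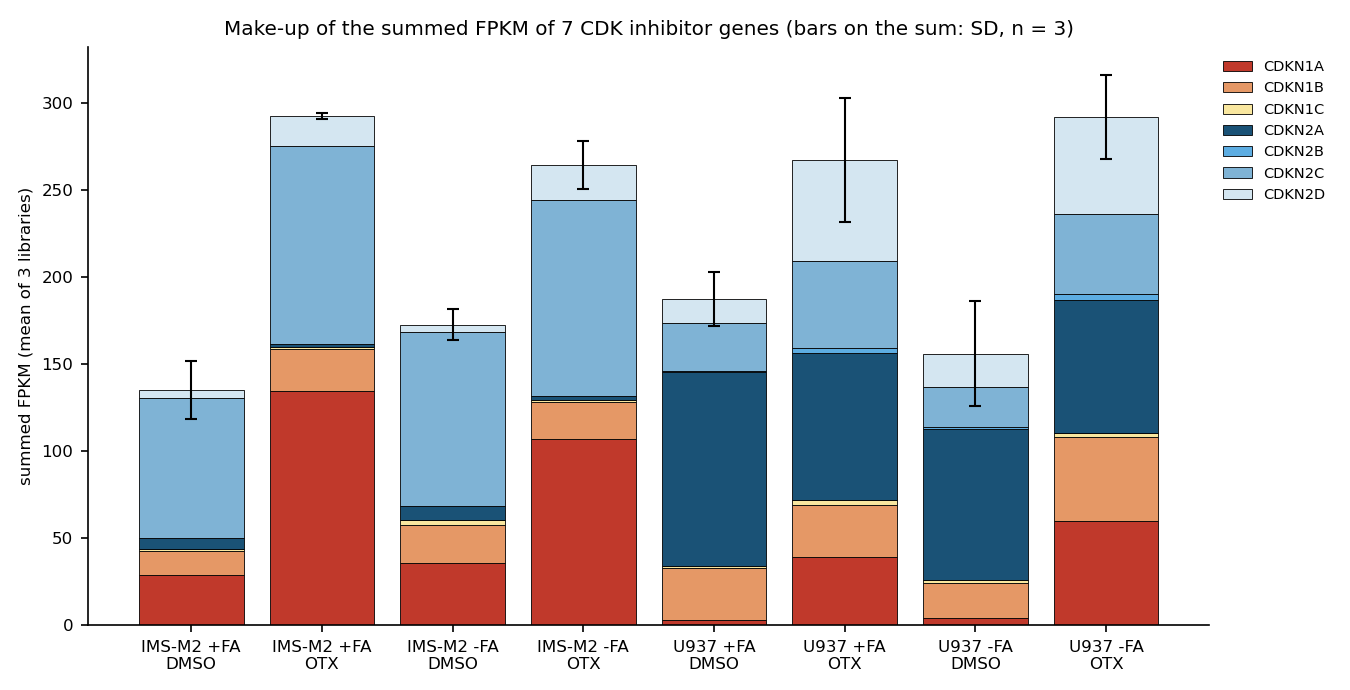
Summed FPKM of the 7 CDK inhibitor genes in each group, as stacked means of 3 libraries with CIP/KIP genes in warm colours and INK4 genes in blues; the error bar is the SD of the sum (n = 3). CDKN2C fills most of the IMS-M2 DMSO bars and CDKN2A most of the U937 DMSO bars, and the CDKN1A segment grows under OTX in all 4 conditions.

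Folic acid made a called difference to the OTX response of 1 inhibitor, CDKN1A in IMS-M2. Its rise was smaller without folic acid than with it, by 0.65 on the log2 scale (-FA minus +FA -0.65, SE 0.115, adjusted p = 0.0137), where 6.94% of all genes tested were called. The DMSO libraries without folic acid started higher (34.2 to 37.9 FPKM against 27.6 to 29.8) and the OTX libraries ended lower (101 to 118 against 126 to 139.8). Without 1 library, replicate 1 of IMS-M2 -FA OTX, the adjusted p was 0.0544, and the number of genes called in this comparison moved from 779 to 82. For CDKN1B, CDKN2A and CDKN2C the IMS-M2 differences were -0.83, -0.48 and -0.33, with an unadjusted p under 0.05 but adjusted p-values of 0.0722, 0.0936 and 0.123. Those of CDKN1C and CDKN2D were -0.25 and 0.28 (adjusted p = 0.361 and 0.260). Without replicate 1 of IMS-M2 +FA DMSO, the library with the highest CDKN1B and CDKN2C of its group, CDKN1A, CDKN1B and CDKN2C were called (adjusted p = 0.00437 for CDKN1B and 0.0268 for CDKN2C), and 3429 genes in all.

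In U937, 0 of the 7 inhibitors had a called difference, against 2.01% of all genes; at an unadjusted p under 0.05, limma had CDKN1B higher and CDKN2D lower without folic acid. CDKN1B differed by 1.25 (95% interval 0.44 to 2.06, adjusted p = 0.0643) and CDKN2D by -0.54 (95% interval -0.89 to -0.19, adjusted p = 0.0634). The intervals of CDKN1A (0.28, -0.09 to 0.66), CDKN2A (0.23, -0.31 to 0.77), CDKN2C (0.17, -0.28 to 0.61), CDKN2B (0.02, -0.22 to 0.27) and CDKN1C (-0.05, -0.51 to 0.41) all held 0. The count of called genes rested on single libraries: 225 in all, but 2184 without replicate 1 of U937 +FA DMSO and 2704 without U937 -FA DMSO column 1, in both of which CDKN1B and CDKN2D were called, and 79 or fewer without any one of the others. No effect of folic acid removal alone was tested, since +FA and -FA libraries of a line are in separate tables.

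The lines differed more, among all genes as well. With folic acid, the OTX change of 50.6% of 12197 genes tested differed, 3378 higher and 2797 lower in U937. Near that share, 4 of 7 inhibitors had a higher OTX change in U937 than in IMS-M2, and 0 had a lower one. These were CDKN1A (1.13, SE 0.146, adjusted p = 2.85e-06), CDKN2B (1.09, SE 0.0786, adjusted p = 6.55e-10), CDKN1C (0.88, SE 0.203, adjusted p = 0.00140) and CDKN2A (0.82, SE 0.222, adjusted p = 0.00486). For CDKN2A the higher value means a smaller fall, not a rise. CDKN1B differed by -0.78 (adjusted p = 0.0691), and was the 1 inhibitor lower at an unadjusted p under 0.05 in limma. CDKN2C and CDKN2D differed by 0.33 and 0.24 (adjusted p = 0.114 and 0.236). CDKN1B passed without IMS-M2 DMSO replicate 1, U937 DMSO replicate 1 or U937 OTX replicate 1 (adjusted p from 0.0193 to 0.0406), and CDKN2C without IMS-M2 DMSO replicate 3 or U937 OTX replicate 3 (adjusted p = 0.0431 and 0.0179). Without folic acid, 43.0% of all genes differed and all 7 inhibitors were called: CDKN1A by 2.06, CDKN2A by 1.52, CDKN1B by 1.30, CDKN2B by 1.12, CDKN1C by 1.08 and CDKN2C by 0.83 toward U937, and CDKN2D by -0.58, toward IMS-M2 (adjusted p from 5.60e-10 to 0.00845). The CDKN2B difference was taken against IMS-M2 libraries at or near 0 under both treatments, so it restates the U937 rise; without that gene the counts were 3 of 6 with folic acid and 6 of 6 without.

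**Figure D4:**
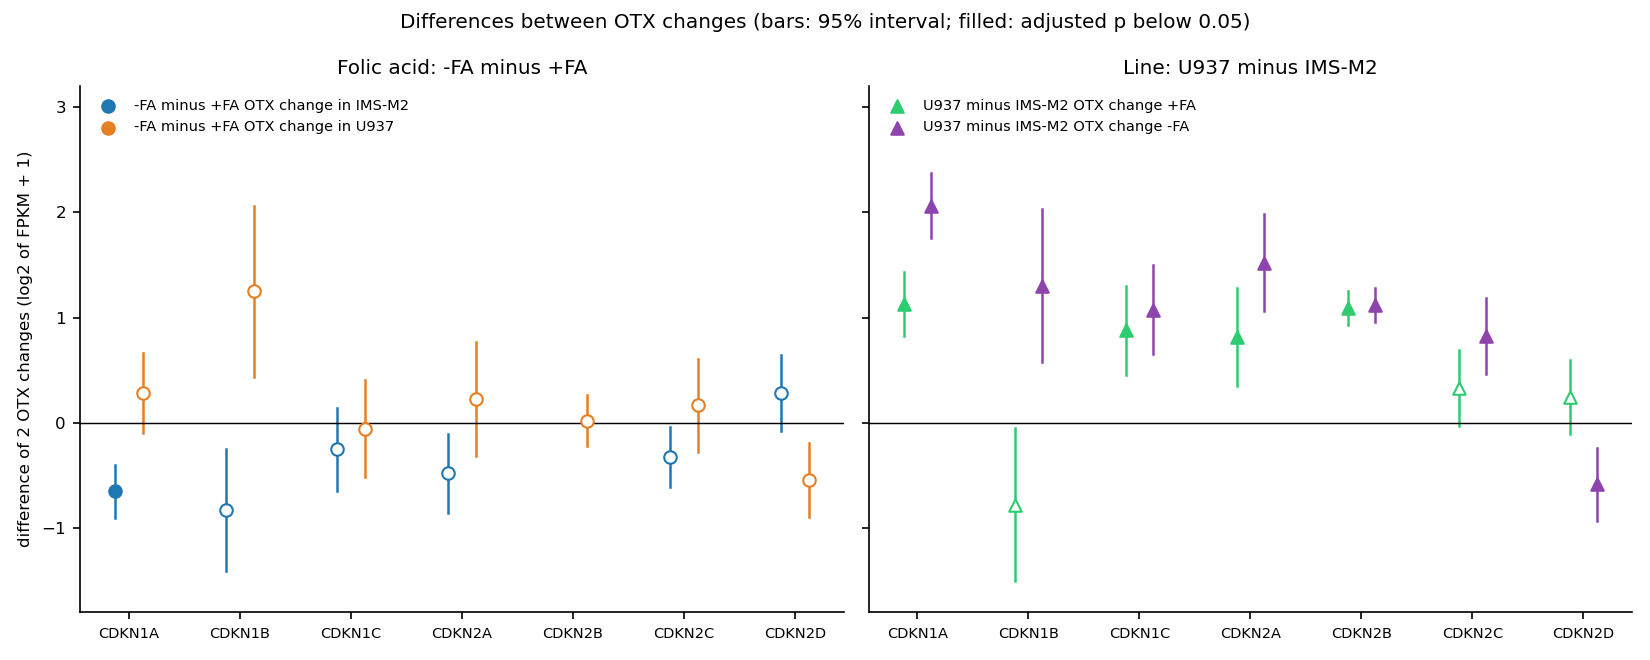
Differences between OTX changes (log2 of FPKM + 1) with 95% intervals: on the left -FA minus +FA in IMS-M2 (blue) and U937 (orange), on the right U937 minus IMS-M2 with folic acid (green) and without (purple); filled symbols passed an adjusted p of 0.05. On the left only CDKN1A in IMS-M2 is filled, at -0.65; on the right 4 and 7 genes are filled, with CDKN1A at 1.13 and 2.06 and CDKN2D at -0.58 without folic acid.

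CDK4, a target of the INK4 proteins, moved the other way from CDKN2D. It fell in all 4 comparisons, from 157 ± 8.93 to 123 ± 2.06 FPKM in IMS-M2 +FA and from 155 ± 14.6 to 85.1 ± 4.71 FPKM in U937 -FA (-0.35, -0.57, -0.75 and -0.85, adjusted p at most 0.00117). CDK6 was called only in U937 -FA, where it fell (-0.70, adjusted p = 0.00397). The ratio of summed INK4 FPKM to summed CDK4 and CDK6 FPKM was 0.444 ± 0.0835 under DMSO and 0.756 ± 0.0109 under OTX in IMS-M2 +FA, and 0.541 ± 0.0298 and 0.869 ± 0.0413 in IMS-M2 -FA. In U937 it was 0.865 ± 0.0863 and 1.76 ± 0.204 with folic acid, and 0.732 ± 0.108 and 1.84 ± 0.102 without it. In all 4 conditions every OTX library was above every DMSO library. The INK4 sum takes CDKN2A at gene level, where ARF is counted along with p16. In U937 +FA DMSO, CDKN2A was 111 FPKM of an INK4 sum of 153 FPKM, so how much of the ratio is INK4 RNA is unknown. Among the D-type cyclins that activate these kinases, CCND3 rose in all 4 comparisons, for example from 147 ± 8.47 to 460.0 ± 38.0 FPKM in IMS-M2 +FA (1.63, 1.49, 1.31 and 1.12), and CCND2 fell in all 4 (-0.80, -0.47, -1.61 and -1.51). CCNE2, a cyclin partner of CDK2, rose in all 4 (1.39, 0.81, 1.40 and 1.24). CDK2 was called as rising in IMS-M2 +FA (0.98, adjusted p = 3.32e-06) and U937 -FA (0.63, adjusted p = 0.00341), and not in the other 2 (0.14 and 0.20). CDKN1B was called in the same comparisons, but its folic acid difference was not called in either line. In U937, 0 of the 12 cyclins and CDKs tested had a called folic acid difference. Of 12 cyclins and CDKs tested, 4 rose and 4 fell in IMS-M2 +FA, 2 and 3 in IMS-M2 -FA, 6 and 2 in U937 +FA, and 6 and 3 in U937 -FA. Over all genes tested, 29.8% rose and 33.4% fell, 27.5% and 30.0%, 29.1% and 27.0%, and 28.0% and 31.7% in the same order. Neither these counts nor those of the lists below were tested against the all-gene shares.

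Downstream of the kinases, the RB and E2F genes went in both directions, as did all genes tested (shares given above with the cyclins). Of 17 listed, 17 were tested in IMS-M2, where 5 rose and 3 fell (+FA) and 4 rose and 6 fell (-FA), and 16 in U937, where 5 rose and 4 fell (+FA) and 4 rose and 4 fell (-FA). RB1 rose in all 4 (0.93, 0.43, 0.44 and 0.98), although its call in IMS-M2 -FA was lost without DMSO replicate 1 or OTX replicate 2 (adjusted p = 0.0563 and 0.0550), as was that in U937 +FA without the replicates of the same name (adjusted p = 0.0663 and 0.0618). E2F2, an activator E2F, fell by 1.12 and 1.13 in IMS-M2, while E2F7, a repressor E2F, rose there by 0.98 and 0.61 and was below the filter in U937. In U937 E2F2 rose instead, by 0.42 (adjusted p = 0.00647) with folic acid and by 0.29 (adjusted p = 0.0354) without, the latter call being lost without DMSO column 2 or any 1 OTX library (adjusted p from 0.0515 to 0.132), with no filter or with the compared table alone (adjusted p = 0.0568 and 0.0588). E2F5 fell in all 4 (-0.28, -0.59, -1.39 and -0.93), the first of these calls being lost without DMSO replicate 1 or 2 or OTX replicate 1 or 3, with libraries scaled to equal sums, with no filter or with the compared table alone (adjusted p from 0.0661 to 0.134). S phase genes under E2F control, 24 tested in each, rose and fell as 9 and 7 in IMS-M2 +FA, 5 and 8 in IMS-M2 -FA, 9 and 2 in U937 +FA, and 4 and 13 in U937 -FA. RRM2, a subunit of ribonucleotide reductase, rose in all 4 (1.45, 1.31, 1.83 and 1.33), and POLE2, a subunit of DNA polymerase epsilon, fell in all 4 (-0.68, -0.79, -0.75 and -1.06). The replication helicase genes MCM2 and MCM5 fell in IMS-M2 +FA (-0.96 and -1.10), IMS-M2 -FA (-0.64 and -0.72) and U937 -FA (-1.17 and -0.96) and were not called in U937 +FA (-0.17 and 0.20). Median log2 changes of these 24 genes were 0.00, -0.13, 0.08 and -0.32.

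Upstream, MYC, a repressor of CDKN1A and CDKN2B transcription, fell in all 4 comparisons. Its level went from 197 ± 11.2 to 142 ± 0.748 FPKM in IMS-M2 +FA and from 183 ± 2.94 to 119 ± 1.95 FPKM in IMS-M2 -FA, and much further in U937, from 196 ± 10.1 to 24 ± 1.27 FPKM in the +FA libraries then from 177 ± 9.74 to 20.2 ± 2.59 FPKM in its -FA libraries (-0.47, -0.62, -2.98 and -3.08). ID2, a dominant-negative partner of basic helix-loop-helix factors, rose in all 4 (1.62, 1.55, 2.51 and 2.52), and SPI1, the myeloid factor PU.1, fell in all 4 (-2.80, -2.16, -0.55 and -0.52). Of 25 regulators tested, 11 rose and 6 fell in each IMS-M2 comparison, 9 and 6 in U937 +FA, and 8 and 6 in U937 -FA. The all-gene shares are those given above with the cyclins. The part of MYC or of any other regulator in the inhibitor changes was not tested.

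Regulators of the INK4 locus and of inhibitor turnover also went in both directions, as did all genes tested (shares given above with the cyclins). Of the Polycomb and other INK4 locus regulators, 8 rose and 3 fell of 21 in IMS-M2 +FA, 9 and 4 of 21 in IMS-M2 -FA, 6 and 2 of 22 in U937 +FA, and 8 and 7 of 22 in U937 -FA. ETS1, an activator of p16 transcription, rose in IMS-M2 (1.43 and 1.56) where CDKN2A fell, and also in U937 (0.56 and 0.38). ID1, on the same list, also rose in IMS-M2 (1.12 and 1.41) but was not called in U937 (-0.25 and -0.33). PCGF1, a Polycomb RING finger protein, fell in all 4 (-0.89, -0.84, -0.80 and -1.09). SKP2, which marks the p27 protein for degradation, fell in IMS-M2 -FA (-0.58, adjusted p = 0.00103) and U937 +FA (-0.80, adjusted p = 0.000782). It was not called in IMS-M2 +FA (-0.09, adjusted p = 0.502) or U937 -FA (-0.33, adjusted p = 0.0739). Whether ETS1, ID1, PCGF1 or SKP2 had a part in the inhibitor changes was not tested. Of the 17 turnover genes, 7 rose and 1 fell, 4 and 3, 5 and 3, and 1 and 4 in the 4 comparisons in the same order, and CUL4A, a ligase scaffold that acts on p21, fell in all of them (-0.32, -0.29, -0.57 and -0.58). Among 11 other genes named for CDK inhibition, 6 rose and 2 fell, 4 and 3, 1 and 2, and 6 and 1. CABLES1, which links CDKs to the kinases that inhibit them, fell in all 4 (-1.64, -1.84, -0.67 and -0.85), and CDKN3, a phosphatase that acts on CDK2, rose in all 4 (0.48, 0.28, 0.41 and 0.67), though in IMS-M2 -FA not without OTX replicate 2 (adjusted p = 0.0512).

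The genes whose group means were most like those of each inhibitor were found by Pearson's r of mean log2(FPKM + 1) over the 8 groups, among 6856 genes whose means spanned at least 1 log2 unit. With 8 points from 24 shared libraries and the best of 6856 genes taken, these values are descriptions. For CDKN1A they were ARHGAP18 (r = 0.994), RHBDD2 (0.992) and TMEM66 (0.991), of which ARHGAP18 went from 6.38 to 10.7 FPKM in IMS-M2 +FA and from 2.81 to 6.49 FPKM in U937 +FA. CDKN1B was most like CUL4B (0.984), RHEB (0.972) and MST4 (0.968), all of which had higher means under OTX in IMS-M2 +FA and U937 -FA and nearly level means in the other conditions. For CDKN2A they were UBAC2 (0.997), NIPSNAP3A (0.996) and PPP6R1 (0.996), and for CDKN2B PPIC (0.997), PTK6 (0.997) and TMTC2 (0.996), all 3 at 0.173 FPKM or less in every IMS-M2 group. CDKN2C was closest to FYN (0.995), MICAL1 (0.993) and SPSB2 (0.990), and CDKN2D to MKNK2 (0.992), DENND6A (0.992) and CNNM4 (0.989). CDKN1C spanned less than 1 log2 unit and was left out. Among the inhibitors themselves, r over the 8 groups was 0.86 between CDKN1A and CDKN2C, -0.92 between CDKN2A and CDKN2C and 0.09 between CDKN1A and CDKN1B.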

How the data were processed

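Stranded polyA RNA libraries were sequenced from IMS-M2 and U937 cells. The FPKM values of 4 tables, 1 per line and folic acid condition with 6 libraries each, are those the authors deposited; per the submitters' processing notes, tools included TopHat2 2.1.1 and Cuffdiff 2.2.1, with bcl2fastq 2.17.1.14 also listed, and the build was hg19. The file headers give no unit, and FPKM was taken from the tools and the values. In U937 -FA the columns are numbered 0 to 2 and the titles 1 to 3, so columns were assigned to groups only, with no replicate number. Groups came from the sample titles.

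Group-means models were fitted to log2(FPKM + 1) with limma 3.58.1 (R 4.3.3), with an intensity trend, over 12 libraries for a line and 24 for line differences, for genes reaching a group mean of 1 FPKM. They were also run on simulated data with known changes, drawn independently for each library from the fitted spread. Those data held no pairs or outlying libraries, so they cannot show how the fits behave with such libraries. Levels used pandas 2.3.3 and numpy 2.4.6, and figures matplotlib 3.10.9. Upstream sequences are RefSeq's for GRCh38.p14, matched by symbol; the other coordinates are the authors' hg19 positions. The 7 genes and all lists were chosen with earlier results of these data known. From each list, up to 2 genes per direction and comparison with the smallest p were named, plus MYC, SKP2, CDK2, CDK4, CDK6 and D-type cyclins; MTAP, CDKN2B-AS1 and C9orf53 were named for their position. One gene of these lists is not reported here. Genes that the rule covers in some comparisons only were followed across the others after their values were seen. Pseudocount, filter, scaling, trend, replicate block, fits by table and single libraries were varied. FPKM carries no depth, so the stated precision rests on the libraries of each group, and any limit set by depth is unknown.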

Additional observations from a re-analysis of the deposited data

Results flagged for a closer look

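The OTX change of 1 inhibitor differed between folic acid conditions in IMS-M2: CDKN1A rose less without folic acid, by -0.65 on the log2(FPKM + 1) scale (SE 0.115, adjusted p = 0.0137 in limma's interaction test). Of all genes tested, 6.94% were called there. Without replicate 1 of IMS-M2 -FA OTX, the same limma test gave CDKN1A an adjusted p of 0.0544.

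Between the lines, interaction tests called 50.6% of all genes tested with folic acid and 43.0% without it. Differences (U937 minus IMS-M2) were called in both folic acid conditions for 4 inhibitors. With folic acid they were 1.13 for CDKN1A, 0.88 for CDKN1C, 0.82 for CDKN2A and 1.09 for CDKN2B. Without folic acid the same genes differed by 2.06, 1.08, 1.52 and 1.12, and 3 more were called, CDKN1B at 1.30, CDKN2C at 0.83 and CDKN2D at -0.58. Of the called differences, CDKN2D without folic acid was the 1 toward IMS-M2. CDKN2B was at or near 0 in IMS-M2 under both treatments, so its 2 differences restate its rise in U937. All groups held 3 libraries, too few for a test of single outlying libraries.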

How the results depend on the processing

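Of 817 checks of the 53 single-gene results on the inhibitors under alternative settings, 785 kept direction and side of the threshold, 16 gained a call, 1 lost one and 15 changed sign. The sign changes were all in values near 0 that were not called. CDKN1B in IMS-M2 -FA ranged from -0.137 to 0.0131 with single libraries left out. CDKN1B in U937 +FA was -0.00249 with equal FPKM sums and -0.00595 with equal medians, and ranged from -0.20 to 0.20 over left-out libraries. The folic acid difference in U937 was 0.043 for CDKN1C with equal FPKM sums (from -0.21 to 0.075 over left-out libraries) and -0.0856 for CDKN2B with a pseudocount of 0.1 FPKM (from -0.024 to 0.10 over left-out libraries). The counts of inhibitors called in the 4 OTX and 2 line comparisons stayed within 1.5 times under the settings run. Where folic acid conditions were compared in IMS-M2, left-out libraries gave 0 to 3 inhibitors and 82 to 3429 genes, and no filter gave 445 genes. In U937 they gave 0 to 2 inhibitors and 1 to 2704 genes; equal FPKM sums gave 7 genes, no filter 128 and a pseudocount of 0.1 FPKM 31. The cause was not tested. The share of positive differences among called genes went from 48.0% to 34.4% (equal sums) and 61.8% (equal medians) for folic acid in IMS-M2, from 36.9% to 57.1% and 56.2% in U937, and from 49.9% to 67.6% (equal sums) for the line difference without folic acid; equal sums shifted the all-gene medians of the latter 2 by 0.131 and 0.151. Depth is unknown, which limits what can be said of CDKN2B in IMS-M2 and of CDKN1C.

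Replicate numbers were treated as names in the main fits. Correlations of the deviations of same-numbered libraries were 0.0555, 0.283 and 0.0774 in IMS-M2 +FA, 0.0908, 0.220 and 0.200 in IMS-M2 -FA and -0.338, 0.131 and -0.240 in U937 +FA. Those of differently numbered libraries ran from -0.164 to 0.0664, from -0.176 to -0.00397 and from -0.322 to 0.505 in the same order. All same-numbered values in IMS-M2 were positive, so its numbers may mark pairs that the main fits ignore. With the number as a block, 5 inhibitors in IMS-M2 +FA, 4 in IMS-M2 -FA, 5 in U937 +FA and 4 for the line difference with folic acid were called, the counts found without it. Between folic acid conditions of IMS-M2 the block gave 2 inhibitors, CDKN1A and CDKN1B (adjusted p = 0.0388 for CDKN1B), and 1920 genes in place of 779. No block was fitted for U937 -FA, whose column numbers (0 to 2) differ from those of the titles (1 to 3) and were not taken as replicate numbers.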
